A study of Bos taurus with 12 samples.

Results

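Isthmus epithelium was compared with ampulla epithelium in Angus heifers of the luteal phase (LP), the days on which a corpus luteum holds progesterone high. The differences rest on 6 of the 12 arrays of the series, an isthmus and an ampulla array from each of 3 heifers, paired by the animal number in the sample titles, and their spread was estimated over all 12 arrays. All 26773 probesets were tested, and the description follows the 18010 genes that a probeset with a single gene symbol reads. The LP heifers cycled normally, were given no treatment that the labels name, and were killed between days 11 and 12 after ovulation. The other 3 heifers, in the follicular phase (FP, high estradiol), received 25 mg of prostaglandin F2α on day 6 after ovulation and were killed 36 h later. Phase therefore goes together with the prostaglandin injection and with the days since ovulation, and these cannot be told apart. Epithelial cells were isolated from small pieces of each segment, from the oviduct on the side of the corpus luteum in the LP and of the preovulatory follicle in the FP, and the RNA of each was hybridised to 1 array. Each value is the log2 signal of 1 probeset after robust multichip averaging (RMA).

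The ampulla is the wide segment of the oviduct in which fertilisation takes place, and the isthmus is the narrow segment that joins the uterus and holds sperm before ovulation. Both are lined by ciliated cells, which move fluid and gametes, and by secretory cells, which release proteins, ions and nutrients into the lumen. Progesterone acts on these cells through a nuclear receptor in epithelium and stroma and through membrane-bound components.

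Array medians lay between 7.33 and 7.40, and the 3 arrays of each LP segment correlated at 0.984 to 0.988. The differences within each LP heifer, isthmus minus ampulla over all probesets, correlated between heifers at 0.63 to 0.69 (0.36 to 0.47 in the FP), across probesets, which are not independent replicates. Epithelial markers read high in every LP array, with a mean over 7 markers of 10.08 to 10.14 in the ampulla and 10.44 to 10.51 in the isthmus. EPCAM, an epithelial adhesion protein, had LP means of 12.00 and 12.24.

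Segments differed widely in the LP. A gene was called where the adjusted p was under 0.05 and the fold at least 1.5, and 1524 of 18010 genes were called (8.46%), 829 higher in the isthmus (4.6%) and 695 lower (3.86%). Over all probesets 1825 were called (6.82%), 1015 higher (3.79%) and 810 lower (3.03%). The median difference over all probesets was -0.01. Large differences leaned to the isthmus, with 26 genes at least 16-fold higher there against 2 lower, and 151 against 87 at 4-fold. In 811 of the 829 genes higher in the isthmus and 637 of the 695 lower, the 3 isthmus values and the 3 ampulla values did not overlap, where 16.3% and 16.9% of all genes had no overlap in those directions. The calls were made on these same values, so this is no separate support for them. With both arrays of heifer 2 left out 591 genes were called, and 802 and 1134 without heifer 3 and heifer 1. A fit on the LP arrays alone called 1262, 719 higher and 543 lower. Of the called genes named below other than CHRDL1 and SPRY4, C3, CA2, CCDC125, CD247, CD3G, EMCN, KERA, KIT, PAQR5, PGRMC1, SEMA3A, SMO, UPK3B and WT1 were not called in it (adjusted p = 0.0507 to 0.113). Without any 1 of the 6 heifers in turn, 514 of the 1524 genes kept their call each time, 346 higher and 168 lower. Below, a call that did not hold without a heifer is named with that heifer, except for CHRDL1. The gene lists counted below were chosen with earlier results of these data known. Their counts describe the members and do not test a process, and are to be read beside the 8.46% of all genes called. LP heifers are meant unless FP is written, and values given in threes follow heifers 1, 2 and 3.

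The genes that stood highest in the isthmus encode secreted peptides and proteins, receptors and channels. GRP, the gastrin-releasing peptide, read 7.5, 6.94 and 7.43 in the ampulla and 13.38, 13.96 and 13.41 in the isthmus. The difference was 6.29 ± 0.22 (log2, SE, n = 3 pairs), a 78.3-fold higher signal (adjusted p = 7.94e-05), and no heifer came near the other segment's range. NETO1, an auxiliary subunit of glutamate receptors, read 4.48, 5.04 and 4.88 in the ampulla and 9.81, 11.29 and 11.59 in the isthmus, a difference of 6.10 ± 0.31 (adjusted p = 0.000273). Its ampulla signal fell below each array's lower quartile, which ranged from 5.68 to 5.82, so the size of its 68.7-fold difference is uncertain. The same limit holds for the dimmer segment, and so for the size, of ANG2, BMP5, C4BPA, CA10, FST, GABRP, HPGD, ID1, KERA, NCAPG, NRCAM, RNASE11, SCN3A, SERPINB7, SLC13A5 and SLC16A7, and of others where it is said beside their values. LRP2, the endocytic receptor megalin, read 6.84, 6.64 and 6.47 against 11.95, 11.50 and 11.68 in the isthmus, 33.5-fold higher (difference 5.06 ± 0.12, adjusted p = 2.46e-05). GPM6B, a membrane glycoprotein of the proteolipid family, was 34.7-fold higher, and CPE, a carboxypeptidase that trims peptide hormones, 21.1-fold, each from ampulla means under the lower quartile (5.42 and 5.24). CCN2, a matricellular growth factor binding protein, read 8.08, 9.42 and 8.01 in the ampulla and 13.28, 13.35 and 13.09 in the isthmus (difference 4.74 ± 0.55, adjusted p = 0.00472), and the isthmus values varied less among heifers (SD 0.13) than the ampulla values (SD 0.79). NPL, which cleaves sialic acid, was higher by 4.53 ± 0.21, the bone morphogenetic protein BMP5 by 4.26 ± 0.31 and the voltage-gated sodium channel SCN3A by 4.26 ± 0.34. These calls held without any 1 heifer.

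**Figure D1:**
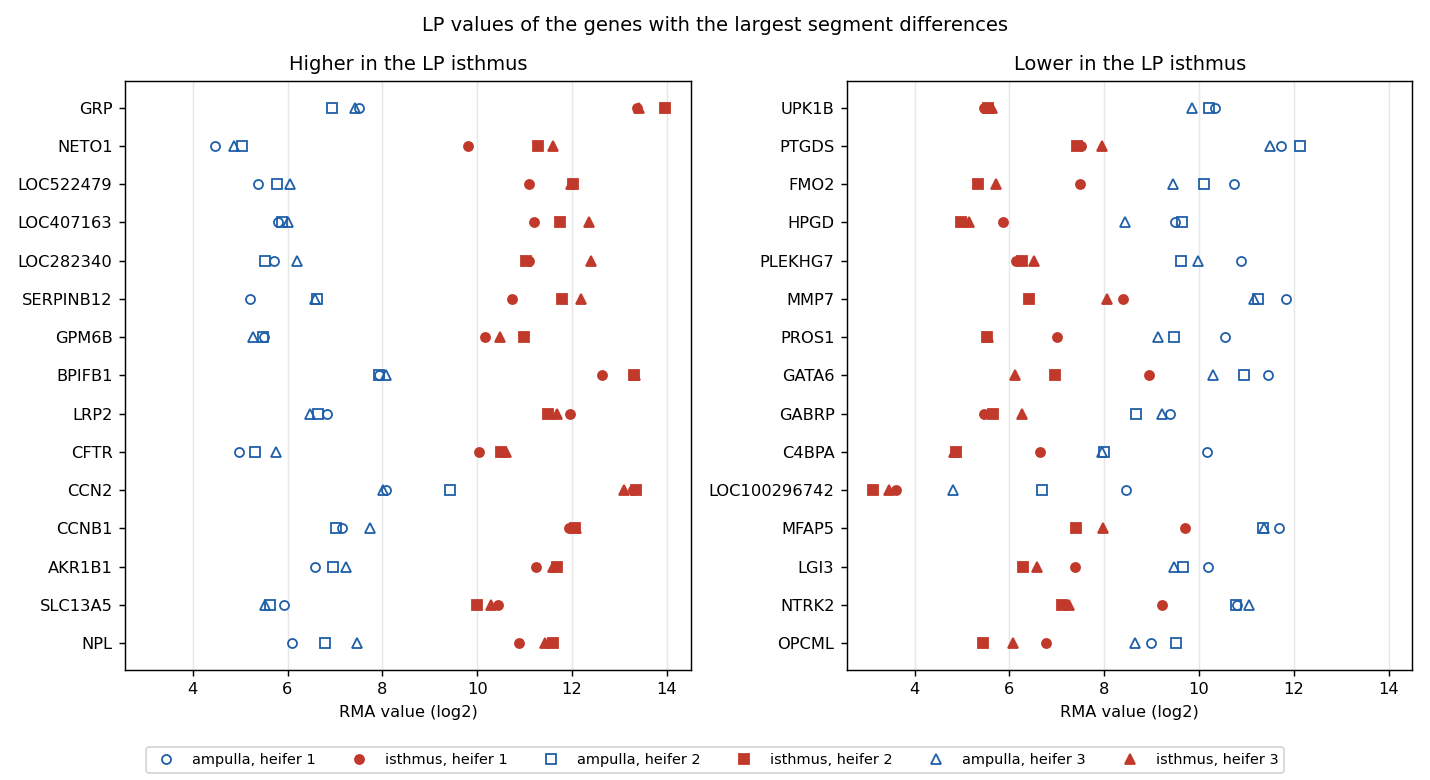
RMA values (log2) of the 15 genes with the largest called difference in each direction among those named by rule, in the 6 LP arrays. Open blue symbols are ampulla and filled red symbols isthmus, with a symbol shape for each heifer. GRP read 6.94 to 7.5 in the ampulla and 13.38 to 13.96 in the isthmus, UPK1B 9.86 to 10.34 and 5.46 to 5.64, and for FMO2, MFAP5 and NTRK2 the isthmus of heifer 1 stands nearest the ampulla.

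Several of the highest genes belonged to protein families of mucosal defence, and within each family only some members differed. Among the BPI fold proteins, secreted at mucosal surfaces, BPIFB1 read 7.92, 7.93 and 8.08 in the ampulla and 12.63, 13.31 and 13.32 in the isthmus, 34.5-fold higher (difference 5.11 ± 0.17, adjusted p = 6.77e-05). BPIFA1 was 16.8-fold higher (difference 4.07 ± 0.23, adjusted p = 0.000437). The other 12 measured BPI fold genes were not called, with differences of -0.37 to 0.38. BPIFA1 and BPIFB1 lie close together in the RefSeq annotation of the assembly ARS-UCD2.0. Of 11 genes of the ribonuclease A family measured, LOC282340, for which RefSeq lists the synonym RNASE1, was 51.8-fold higher in the isthmus, with 5.72, 5.52 and 6.2 in the ampulla and 11.09, 11.02 and 12.40 in the isthmus (adjusted p = 5.71e-05), a fold of uncertain size because the ampulla mean (5.81) was no higher than the arrays' lower quartile. ANG, angiogenin, was higher by 2.55 ± 0.14 and RNASE4 by 1.22 ± 0.18, and with ANG2 (1.37) they are neighbours in the assembly. RNASE11 was also higher (2.03 ± 0.24), and RNASE6, which lies between LOC282340 and RNASE4, was lower (-0.66 ± 0.15, adjusted p = 0.0381), but not without any 1 LP heifer or FP heifer 2 (adjusted p up to 0.164). Without heifer 2 or heifer 3 ANG2 missed the threshold (adjusted p up to 0.061). The list of antimicrobial and luminal defence genes counted 7 higher and 2 lower of 38 (23.7% called against 8.46% of all genes). Without heifer 2 or heifer 3 the counts were 4 and 1. The median difference of the list was 0.07 against -0.01 over all genes. On the lower side was TLR5, the flagellin receptor, at 10.68, 10.61 and 10.44 in the ampulla and 9.37, 8.22 and 8.03 in the isthmus (difference -2.04 ± 0.23, adjusted p = 0.0045).

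Clade B serpins, intracellular protease inhibitors, showed the same selectivity. SERPINB12 read 5.21, 6.62 and 6.57 in the ampulla and 10.74, 11.79 and 12.18 in the isthmus, higher by 5.18 to 5.61 in each heifer and 43.4-fold in the mean (adjusted p = 2.46e-05). A second SERPINB12 probeset was higher by 1.26 (adjusted p = 0.00541). SERPINB7 was higher by 4.41 ± 0.45, although its ampulla values spread from 4.05 to 6.54. LOC522479, a protein-coding locus directly beside SERPINB7 in the assembly, read 5.38, 5.78 and 6.05 in the ampulla and 11.10, 12.02 and 11.98 in the isthmus, 62.3-fold higher (adjusted p = 9.04e-05), with the same uncertainty in size from an ampulla mean of 5.74. SERPINB5, an epithelial serpin also known as maspin, had a difference of -0.57 ± 0.09 (adjusted p = 0.0147), short of the fold of 1.5. The other 8 loci of the family measured were not called, with differences of -0.18 to 0.46. LOC407163, which lies directly beside the elastase inhibitor gene PI3, was 58.4-fold higher (5.80, 5.88 and 6.00 against 11.20, 11.74 and 12.35, adjusted p = 0.000447). PI3 was read by a pair of probesets, both higher in the isthmus. One had means of 7.20 in the ampulla and 13.10 in the isthmus (difference 5.90, adjusted p = 6.05e-05), and the other, of higher mean signal, differed by 1.85 ± 0.40 (adjusted p = 0.0339) and was called in no fit that lacked an LP heifer or FP heifer 2 (adjusted p up to 0.156).

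The ampulla carried its own set of high genes. UPK1B, a uroplakin of the apical membrane, read 10.34, 10.22 and 9.86 in the ampulla and 5.46, 5.55 and 5.64 in the isthmus, 24.1-fold lower there (difference -4.59 ± 0.47, adjusted p = 0.00315), with isthmus values under the lower quartile. PTGDS, which makes prostaglandin D2, read 11.73, 12.13 and 11.49 against 7.51, 7.42 and 7.95 (difference -4.16 ± 0.35, adjusted p = 0.00154). GATA6, a transcription factor of endoderm and mesoderm, read 11.46, 10.94 and 10.30 in the ampulla and 8.95, 6.97 and 6.13 in the isthmus (difference -3.55 ± 0.43, adjusted p = 0.00534), without overlap but with a spread among isthmus values (SD 1.45). FMO2, a flavin monooxygenase, was lower, at -3.93 ± 0.47, as was GABRP, the pi subunit of the GABA-A receptor, at -3.29 ± 0.24. MMP7, matrilysin, read 11.84, 11.25 and 11.15 in the ampulla and 8.40, 6.42 and 8.06 in the isthmus (difference -3.78 ± 0.34, adjusted p = 0.00196). The secreted protein LGI3 (-3.03 ± 0.35), lipoprotein lipase LPL (-2.89 ± 0.34) and the imprinted gene MEST (-2.88 ± 0.28) followed. All of these calls held without any 1 heifer. The anticoagulant PROS1 (-3.69 ± 0.57), the microfibril protein MFAP5 (-3.11 ± 0.42) and prodynorphin PDYN (-2.88 ± 0.42) missed the threshold without heifer 2 or heifer 3 (adjusted p up to 0.0796, 0.0528 and 0.0603), and the neurotrophin receptor NTRK2 (-3.02 ± 0.42) without heifer 2 (0.0624).

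Heifer 1 differed least between its segments for many ampulla genes. Among the 695 genes lower in the isthmus its difference was the smallest of the 3 in 345 (49.6%), with a median of -0.85 against -1.13 in heifer 2 and -0.95 in heifer 3. For genes higher in the isthmus the medians were 1.02, 1.16 and 1.06. NTRK2, for example, read 9.22 in the isthmus of heifer 1 and 7.12 and 7.26 in the others. The mesothelial markers, which the ampulla of all 3 heifers held at means of 9.30 to 9.38, showed the same order of heifers. Isthmus minus ampulla was 0.02, -1.76 and -1.64 over MSLN, UPK3B, LRRN4 and WT1. MSLN (-0.3, -1.89 and -2.63), UPK3B (-0.56, -1.44 and -1.51) and WT1 (-0.88, -2.76 and -2.19) were lower in each heifer. LRRN4 went the other way in heifer 1 only. Its mean difference was 0.23 (adjusted p = 0.838), and -0.57 to 0.80 with 1 heifer left out. Only UPK3B and WT1 were called, and neither call held without heifer 2 or heifer 3 (adjusted p up to 0.142 and 0.0823). MSLN also stood in the secretory cell list and WT1 in the Mullerian duct epithelium list. The part of mesothelial cells in the ampulla genes was not tested. In bulk samples fewer cells of a type and less RNA per cell cannot be told apart.

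Markers of the other cell types are shown in the plot of marker lists. Fibroblast markers differed by 1.84, 0.74 and -0.03 over 8 genes, with PDGFRA called (0.65), a call lost without any 1 LP heifer (adjusted p up to 0.0959). KERA, a keratan sulfate proteoglycan of stroma, followed the same heifers, at 4.01, 4.73 and 5.41 in the ampulla and 10.56, 10.18 and 6.17 in the isthmus, and its call (adjusted p = 0.048) ended without heifer 1, heifer 2 or any 1 FP heifer (adjusted p up to 0.213). LUM, which lies close to it in the assembly and is likewise a stromal proteoglycan, read 5.82, 6.87 and 6.76 against 11.86, 11.82 and 7.12 and was not called (adjusted p = 0.0786), though it was without heifer 3 (difference 5.50, adjusted p = 0.0218) or without the heifer block (0.0471). Smooth muscle markers had isthmus means of 6.32 to 6.44 and ampulla means of 5.97 to 6.02, with 1 of 7 called, MYH11 (1.36 ± 0.13), while the contractile markers DES (-0.09), CNN1 (0.31) and TAGLN (0.28) were not. Endothelial markers differed by -0.60, -1.47 and -0.50, from KDR (-2.38 ± 0.37) and EMCN (-2.41 ± 0.52), while PECAM1 (-0.24), CDH5 (0.13) and VWF (0.07) were not called. The KDR call ended without heifer 2 or heifer 3 (adjusted p up to 0.0619), and EMCN, not called without heifer 1, heifer 3 or any 1 FP heifer (adjusted p up to 0.0786), had a difference of -1.49 without heifer 2. T and NK cell markers differed by -0.29, -0.37 and -0.69, with 2 of 10 called lower, the T cell receptor chains CD3G (-0.63) and CD247 (-1.27). The immunoglobulin joining chain JCHAIN, 1 of 6 B and plasma cell markers, was lower as well (-1.07 ± 0.14, adjusted p = 0.00766), as was the receptor KIT, 1 of 4 mast cell markers (-1.01). JCHAIN was called without any 1 heifer but, like CD3G, not without the heifer block (adjusted p = 0.272 and 0.239). CD3G was not called without any 1 LP heifer (adjusted p up to 0.0983), CD247 not without heifer 2, heifer 3 or FP heifer 1 (up to 0.18), and KIT not without heifer 2 or heifer 3 (up to 0.122). None of 8 macrophage and dendritic cell markers was called, and the macrophage markers differed by -0.06 in the mean. Secretory cell markers differed by 0.69, -1.18 and -0.56, and ciliated cell markers by -0.28, -0.40 and -0.11. The part of these cells in the called genes was not tested.

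**Figure D2:**
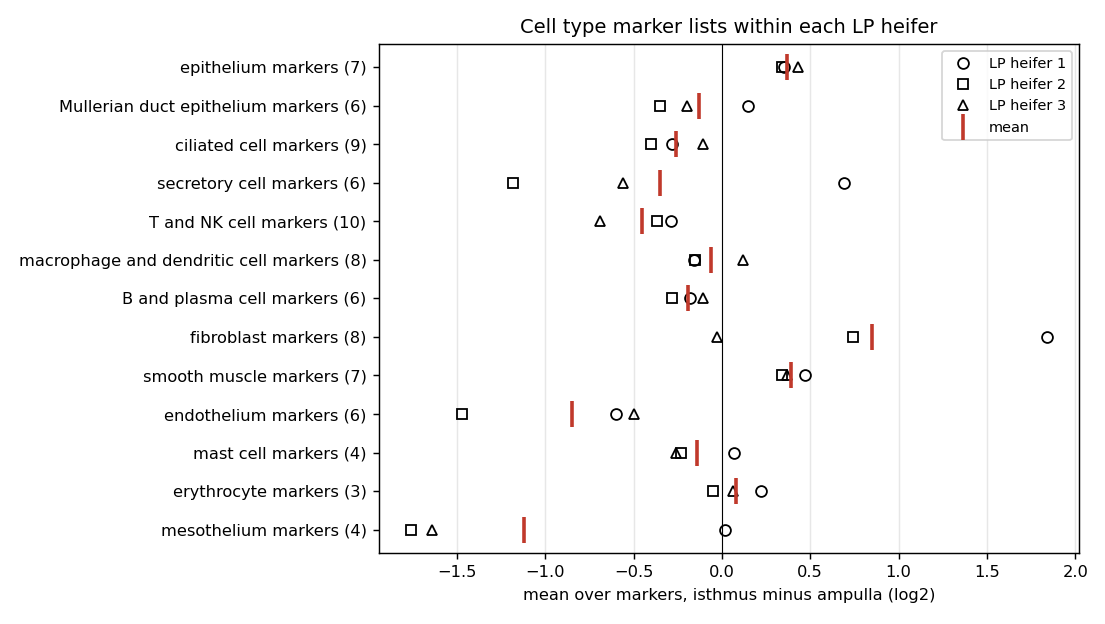
Mean over the markers of 13 cell type lists, isthmus minus ampulla (log2), in each LP heifer (open symbols) with the mean of the 3 heifers (red bars) and the number of measured markers in brackets. Epithelium markers lie at 0.34 to 0.43, fibroblast markers spread from -0.03 to 1.84 and mesothelium markers from -1.76 to 0.02.

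Ciliated cells and secretory cells are the main cell types of the lining. None of 20 regulators of multiciliated cells was called (median -0.07), with RFX3 at -0.35 (adjusted p = 0.0445), RFX2 at -0.41 (adjusted p = 0.0453) and the master regulator FOXJ1 at -0.39 ± 0.10 (adjusted p = 0.051), all under the fold of 1.5. Of 35 axoneme genes 2 were called lower (5.71% called against 8.46% of all genes), tektin TEKT2 (-0.83 ± 0.11, adjusted p = 0.0086) and radial spoke gene RSPH1 (-0.64 ± 0.10, adjusted p = 0.011), with a median of -0.33. RSPH1 was not called without heifer 2 or heifer 3 (adjusted p up to 0.0715). The oviduct glycoprotein OVGP1 read 12.13, 13.06 and 13.20 in the ampulla and 13.30, 11.15 and 12.68 in the isthmus, overlapping ranges (difference -0.42 ± 0.49, adjusted p = 0.663). PAX8, a factor of secretory cells, differed by 0.24 (adjusted p = 0.338).

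Secreted products of the lining went both ways, 4 higher and 4 lower of 27 (29.6% called; 1 and 1 without heifer 2, 2 and 2 without heifer 3), of which 2 held without any 1 heifer, PTGDS on the ampulla side and TFF3 on the isthmus side. TFF3, a trefoil peptide of mucus, read 7.79, 7.02 and 7.62 in the ampulla and 10.55, 10.99 and 11.05 in the isthmus (difference 3.39 ± 0.28, adjusted p = 0.00154). Of 20 genes tied to sperm binding 3 were higher and 1 lower (20% called against 8.46% of all genes). BSP3, a binder of sperm protein known from bull seminal plasma, read 3.55, 3.29 and 2.99 in the ampulla, below the lower quartile, and 6.70, 6.92 and 8.26 in the isthmus (difference 4.02 ± 0.40, adjusted p = 0.00295). BSP1 (0.23) and BSP5 (0.09) were not called. NPPC, the C-type natriuretic peptide, was higher by 1.87 ± 0.21 (adjusted p = 0.00428), and the fucosidase FUCA1 by 0.98 ± 0.09 (adjusted p = 0.00196). ANXA4, an annexin named as a sperm receptor on bovine oviduct cells, was lower, at -0.65 ± 0.09 (adjusted p = 0.00843), and not called without heifer 2 (adjusted p = 0.0617).

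Prostaglandin enzymes divided between the segments. AKR1B1, an aldose reductase that makes prostaglandin F2α in cattle, read 6.57, 6.96 and 7.23 in the ampulla and 11.24, 11.69 and 11.60 in the isthmus, 24.1-fold higher (difference 4.59 ± 0.14, adjusted p = 5.71e-05). HPGD, which inactivates prostaglandins, stood on the ampulla side with PTGDS, at 9.49, 9.64 and 8.43 against 5.86, 4.98 and 5.14 (difference -3.86 ± 0.37, adjusted p = 0.0024). PTGS2, the inducible cyclooxygenase, was called higher in the isthmus (0.81 ± 0.15, adjusted p = 0.02) with all 6 values under the lower quartile, and was not called without any 1 of the LP heifers (adjusted p up to 0.0993). Of 26 genes for synthesis and receptors 3 were higher and 2 lower (19.2% called against 8.46% of all genes), and 1 was higher without heifer 3.

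Of 38 genes for carbonic anhydrases, bicarbonate and chloride transport 7 were higher and 5 lower (31.6% called against 8.46% of all genes). Of these calls 5 held without any 1 heifer, all of them higher in the isthmus. CFTR, the chloride and bicarbonate channel of epithelia, read 4.98, 5.31 and 5.76 in the ampulla and 10.04, 10.5 and 10.61 in the isthmus (difference 5.03 ± 0.20, 32.8-fold, adjusted p = 0.000141), from ampulla values near or under the lower quartile. SLC12A2, which loads cells with chloride from the basal side, was higher by 2.53 ± 0.28 (adjusted p = 0.00397). The carbonic anhydrase family genes CA10 and CA13 were higher by 3.72 ± 0.37 and 1.52 ± 0.17, and ATP1B1, a subunit of the sodium pump, by 1.79 ± 0.23. Both called aquaporins of 10 were higher, AQP5 by 0.99 ± 0.11 and AQP6 by 1.10 ± 0.13. On the ampulla side stood ANO1, a calcium-activated chloride channel (-1.83 ± 0.31, adjusted p = 0.0152), and CA2 (-1.98 ± 0.48, adjusted p = 0.0487). ANO1 was not called without any 1 LP heifer (adjusted p up to 0.099), and CA2 not without heifer 2, heifer 3 or any 1 FP heifer (adjusted p up to 0.217), so that of the 5 genes lower in the isthmus 2, 1 and 0 were called without heifers 1, 2 and 3. Sodium channel subunits parted, with SCNN1A higher by 0.98 ± 0.11 (adjusted p = 0.0046) and SCNN1G lower at -1.5 ± 0.25 (adjusted p = 0.0146), the latter not called without heifer 1 or heifer 2 (adjusted p up to 0.0947).

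Barrier and uptake genes that were called stood mostly on the isthmus side, where 4.6% of all genes were called higher and 3.86% lower. Of 25 claudin and tight junction genes 5 were higher and 1 lower (2 and 0 without heifer 2), with a median of 0.11 against -0.01 over all genes. CLDN4 read 8.38, 8.15 and 8.68 in the ampulla and 10.29, 10.31 and 10.58 in the isthmus (difference 1.99 ± 0.14, adjusted p = 0.000954), and CLDN8 was higher by 2.04 ± 0.11 (adjusted p = 0.000338). CLDN11 was the 1 lower in the isthmus (-2.47 ± 0.42, adjusted p = 0.0163), not called without heifer 1 or heifer 2 (adjusted p up to 0.104). Of 47 carriers for sugars and amino acids 8 were higher and 1 lower (4 and 1 without heifer 2, 5 and 1 without heifer 1 or heifer 3). The median difference of the carriers was 0.03. SLC1A1, a glutamate and aspartate carrier, read 9.04, 9.57 and 9.23 against 12.68, 13.18 and 12.76 in the isthmus (difference 3.60 ± 0.15, adjusted p = 0.00018). SLC1A4, a carrier of neutral amino acids, was higher by 2.11 ± 0.18, and SLC13A5, a citrate carrier outside the list, by 4.55 ± 0.35. SLC16A7, which carries monocarboxylates, was the exception, at -2.22 ± 0.16 (adjusted p = 0.00102). Enzymes that build surface glycans counted 8 higher and 5 lower of 50 (3 and 2 without heifer 2, 3 and 4 without heifer 1). B3GNT3 was higher by 2.03 ± 0.23 and ST6GALNAC2 by 1.66, while the sialyltransferase ST3GAL1 (-2.17 ± 0.27) and the heparan sulfotransferase HS3ST1 (-1.85 ± 0.17) were lower, and these 4 held without any 1 heifer.

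Cholesterol synthesis had the highest share of called members of the 40 process lists, 10 higher and none lower of 17 measured genes (58.8% against 8.46% of all genes), with a median difference of 0.66. The list was chosen with earlier results of these data known, so its share is not independent support for the process. The pathway turns acetyl-CoA into squalene and then into cholesterol, and SREBF2 encodes its transcriptional activator. FDFT1, squalene synthase, read 9.91, 10.32 and 10.15 in the ampulla and 11.75, 11.92 and 11.78 in the isthmus (difference 1.69 ± 0.10, 3.23-fold, adjusted p = 0.000406). INSIG1, which holds SREBP in the endoplasmic reticulum and is itself a target of SREBP, read 8.08, 8.62 and 8.33 against 9.90, 10.26 and 10.29 (difference 1.81 ± 0.09, 3.50-fold, adjusted p = 0.000271). Each of the enzymes CYP51A1 (1.60 ± 0.13), MSMO1 (1.24 ± 0.12), SQLE (1.21 ± 0.10), PMVK (1.13 ± 0.15), TM7SF2 (1.10 ± 0.13), IDI1 (0.87 ± 0.10), LSS (0.66 ± 0.08) and NSDHL (0.64 ± 0.13) was higher, and the segments did not overlap for any of the 10. SREBF2 differed by 0.52 ± 0.10 (adjusted p = 0.0238), short of the fold of 1.5, and MVK (0.07) and DHCR7 (0.18) were not called. In the FP none of the 17 was called and their median was -0.05. For INSIG1, FDFT1, CYP51A1 and MSMO1, which had the largest LP differences, the LP ampulla had the lowest group mean. FDFT1 had means of 10.13 and 11.82 in the LP ampulla and isthmus and 11.94 and 12.03 in the FP. INSIG1 had 8.34 and 10.15 in the LP and 11.14 and 10.91 in the FP. Levels were not tested between the phases. The LP minus FP segment difference passed its own test for INSIG1 (2.04, adjusted p = 0.0109) and FDFT1 (1.61, adjusted p = 0.0208), and for the other 8 it did not (adjusted p = 0.0705 to 0.59). Without any 1 LP heifer 9 of the 10 were called, NSDHL being the exception each time (adjusted p up to 0.134), while the phase difference of INSIG1 was not called without heifer 1, heifer 3 or any 1 FP heifer (adjusted p up to 0.0896) and that of FDFT1 not without any 1 heifer (up to 0.134). Genes of fatty acid handling were higher in 6 and lower in 1 of 26 (3 and 1 without heifer 1, 4 and 1 without heifer 2 or heifer 3). The desaturase FADS2 read 11.00, 11.14 and 11.14 against 12.25, 12.37 and 12.53 (difference 1.29 ± 0.08, adjusted p = 0.000625), and MFSD2A, a lysolipid carrier, was higher by 2.24 ± 0.19 (adjusted p = 0.00148). LPL was the lower member.

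**Figure D3:**
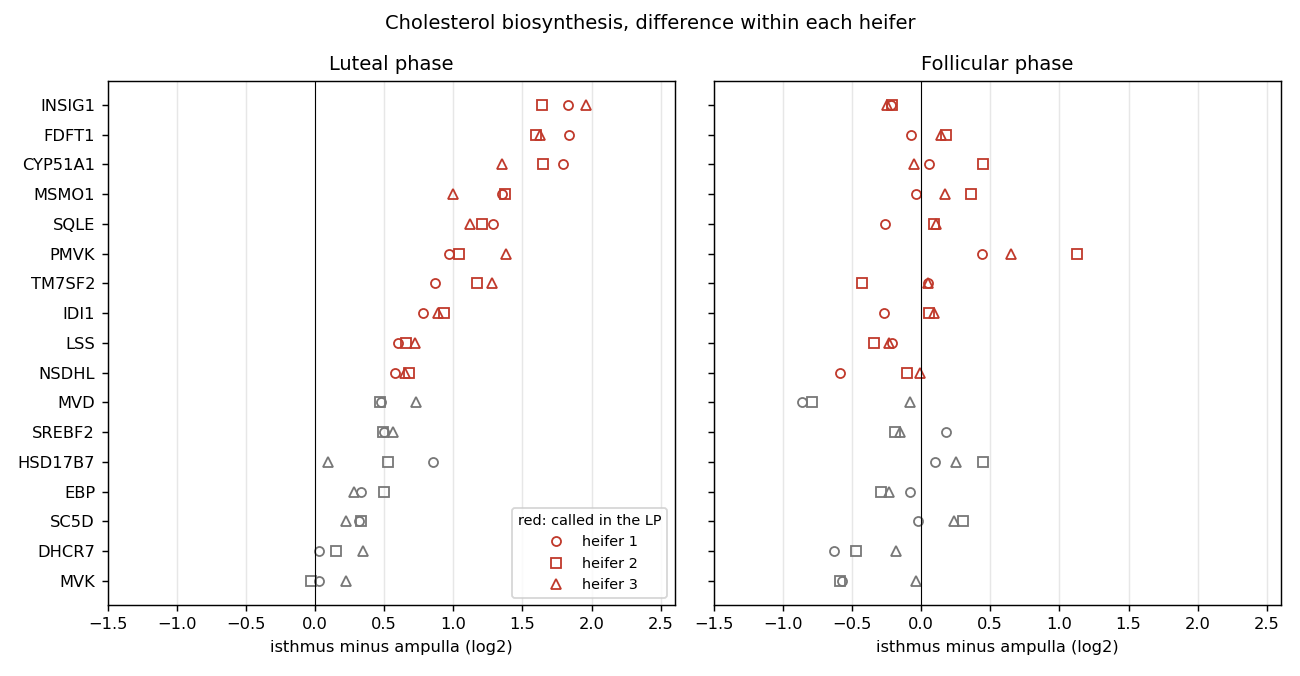
Isthmus minus ampulla (log2) within each heifer for the 17 measured genes of cholesterol synthesis, LP left and FP right, with genes called in the LP in red and others in grey. INSIG1 lies at 1.64 to 1.96 in the LP heifers and below 0 in each FP heifer. The LP median of the 17 is 0.66 and the FP median -0.05.

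Of 15 hedgehog signalling genes 2 were higher and 3 lower (33.3% called against 8.46% of all genes). IHH, the Indian hedgehog ligand, read 6.12, 6.02 and 6.01 in the ampulla and 9.51, 9.39 and 9.55 in the isthmus (difference 3.44 ± 0.08, 10.8-fold, adjusted p = 2.46e-05). PTCH1, its receptor and a transcriptional target of the pathway, was higher by 0.81 ± 0.09 (adjusted p = 0.00377), and the coreceptor BOC lower at -1.35 ± 0.15 (adjusted p = 0.00438). The coreceptor GAS1 (-1.25 ± 0.22) and the transducer SMO (-0.65 ± 0.11) were lower too, but not without heifer 2 or heifer 3 (adjusted p up to 0.107 and 0.0833). Of 49 WNT ligands and modulators 9 were higher and 2 lower (22.4% called, with 7 and 1, 6 and 1, and 6 and 2 without heifers 1, 2 and 3). The ligand WNT5A (1.09 ± 0.11) and the Norrin gene NDP (2.58 ± 0.18) were higher, as were SFRP2, a secreted WNT inhibitor (2.31 ± 0.29), NKD1, an intracellular one (1.60 ± 0.15), and the transcription factor TCF7 (1.44 ± 0.17), while WNT5B was lower (-1.33 ± 0.17). LGR5, the R-spondin receptor that marks epithelial stem cells in the gut, read 8.75, 10.63 and 10.48 in the ampulla and 13.06, 13.28 and 13.00 in the isthmus (difference 3.16 ± 0.47, adjusted p = 0.0109), and was not called without heifer 2 (adjusted p = 0.0561).

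BMP and TGF-β genes counted 9 higher and 6 lower of 48 (31.2% called against 8.46% of all genes). The counts were 4 and 5, 2 and 3, and 5 and 3 without heifers 1, 2 and 3. BMP5 read 4.56, 3.98 and 4.21 in the ampulla and 8.28, 8.04 and 9.20 in the isthmus, and the decoy receptor BAMBI was higher by 1.74 ± 0.12 (adjusted p = 0.000903). The BMP target genes ID1 (-1.23 ± 0.12) and ID2 (-1.04 ± 0.16) were lower, as was the antagonist FST (-1.5 ± 0.10, adjusted p = 0.000785). Another antagonist, CHRDL1, was called higher (2.51 ± 0.35, adjusted p = 0.00852). Its other probesets differed by 2.68 (called) and 0.72 (not called). Of 26 FGF and MAP kinase feedback genes 6 were higher and 1 lower (26.9% called, with 5 and 2, 5 and 0, and 4 and 0 without heifers 1, 2 and 3). FGFR1 was higher by 1.85 ± 0.22, the feedback inhibitor SPRY1 by 1.54 ± 0.11, and the RAS scaffold KSR2 read 6.73, 7.0 and 6.21 against 9.73, 10.33 and 9.41 (difference 3.18 ± 0.10, adjusted p = 5.71e-05). SPRY4, of the same family as SPRY1, was the lower gene (-1.54 ± 0.37, adjusted p = 0.0469), not called without heifer 2 or heifer 3. IGFBP3, which binds insulin-like growth factors, was 10.6-fold higher in the isthmus (difference 3.41 ± 0.18, adjusted p = 0.000301), and IGFBP5 was lower, at -1.53 ± 0.18. The ERBB ligand NRG1 was lower, at -1.93 ± 0.21, but its isthmus mean (5.34) was under the lower quartile, so the size is uncertain. Apart from those of CHRDL1 and SPRY4, these single calls held without any 1 heifer.

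Guidance genes, named from axons and also active in epithelial and vascular patterning, had 18 of 45 called (40% against 8.46% of all genes). Of these 10 were higher and 8 lower (9 and 5, 6 and 3, and 7 and 3 without heifers 1, 2 and 3). SEMA6A read 8.63, 7.72 and 8.24 in the ampulla and 11.04, 10.46 and 11.69 in the isthmus (difference 2.87 ± 0.24, adjusted p = 0.00144). SEMA5A was higher by 2.87 ± 0.24, SEMA6D by 1.48, SEMA4D by 1.22 and the SLIT receptor ROBO2 by 1.26. SLIT3, a ligand of that receptor family, read 9.47, 9.42 and 8.80 in the ampulla and 7.69, 6.51 and 6.56 in the isthmus (difference -2.31 ± 0.24, adjusted p = 0.00315), and the ephrin EFNA5 was lower, at -1.63 ± 0.16 (-2.04 on its second probeset). SLIT2 (-1.29 ± 0.29) and SEMA3A (-2.10 ± 0.37) were called lower but not without heifer 2 or heifer 3 (adjusted p up to 0.172 and 0.115), nor was SLIT2 without heifer 1 or FP heifer 2. Of the adhesion genes, NRCAM (2.63 ± 0.14) and the integrin ITGB4 (0.71 ± 0.08) were higher, and VCAM1 (-2.05 ± 0.23) and CDH6 (-1.58 ± 0.14) lower, in a list of 44 with 6 in each direction (2 and 4 without heifer 2, 3 and 3 without heifer 3, 4 and 5 without heifer 1).

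Transcription factors that pattern the reproductive tract differed in 9 of 33 (5 higher, 4 lower, 27.3% called against 8.46% of all genes), of which 3 held without any 1 heifer. Beside GATA6 these were MEIS2, a HOX cofactor (-1.35 ± 0.13, adjusted p = 0.00255), and KLF17, which read 5.96, 7.20 and 7.43 in the ampulla and 9.85, 11.07 and 10.56 in the isthmus (difference 3.63 ± 0.17, 12.4-fold, adjusted p = 0.000223). HOX genes, which set position along the body axis, counted 3 higher and 2 lower of 29 (17.2% called; 1 and 1 without heifer 2, 2 and 1 without heifer 3). HOXB8 was higher by 1.71 ± 0.13 (adjusted p = 0.00124) and HOXD4 lower at -1.61 ± 0.19 (adjusted p = 0.00515), and both held.

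Among 12 steroid receptor genes measured, 2 were higher in the isthmus and 2 lower (33.3% called against 8.46% of all genes). ESR2, estrogen receptor β, read 9.36, 10.24 and 9.07 in the ampulla and 10.98, 11.23 and 10.88 in the isthmus (difference 1.47 ± 0.18, adjusted p = 0.0061), a call that held without any 1 heifer. Nuclear progesterone receptor PGR read 9.51, 9.38 and 9.81 against 10.23, 10.10 and 10.14, without overlap but not called (difference 0.59 ± 0.23, adjusted p = 0.171), though it was called without FP heifer 2 (adjusted p = 0.0416). Estrogen receptor α, ESR1, lay at 12.24 to 12.68 in all 6 arrays (difference 0.15 ± 0.11, adjusted p = 0.488). The membrane progesterone receptors differed in direction, with PAQR5 at 1.33 ± 0.24 (adjusted p = 0.0193), PAQR8 at -0.66 ± 0.11 (adjusted p = 0.017) and the membrane component PGRMC1 at -0.61 ± 0.13 (adjusted p = 0.031). None of these 3 was called without heifer 2 or heifer 3 (adjusted p up to 0.0762, 0.0995 and 0.148), nor PGRMC1 without any 1 FP heifer. NR3C1, the glucocorticoid receptor, differed by -0.57 ± 0.10 (adjusted p = 0.0208), short of the fold of 1.5, and was called without heifer 1. PAQR7 (-0.44), PGRMC2 (-0.19), GPER1 (-0.19), NR3C2 (0.14) and VDR (-0.09) were not called.

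Of 31 genes of complement and its regulators 6 were lower in the isthmus and 2 higher (25.8% called against 8.46% of all genes). This list, too, was chosen with earlier results of these data known. The median difference of the list was -0.01, as over all genes, and 2 lower calls and 1 higher call held without any 1 heifer. The complement regulator C4BPA read 10.17, 8.00 and 7.96 in the ampulla and 6.65, 4.88 and 4.83 in the isthmus, with differences of -3.53, -3.12 and -3.13 (adjusted p = 0.00393). MASP1, a protease of the lectin pathway, was lower, at -2.75 ± 0.29 (adjusted p = 0.00332), and C5 higher by 1.75 ± 0.23 from values under the lower quartile in the ampulla. C3, the central component, read 13.57, 13.15 and 13.28 in the ampulla and 12.16, 9.02 and 11.19 in the isthmus (difference -2.54 ± 0.53, adjusted p = 0.0313), and was not called without heifer 2, heifer 3 or FP heifer 3 (adjusted p up to 0.102). Genes lower in the isthmus numbered 3, 2 and 4 without heifers 1, 2 and 3 and 3 without FP heifer 3. Cytokines and chemokines were lower in 7 and higher in 2 of 46, but none of the 9 calls held without each heifer in turn, and none was made without heifer 2. The T and NK cell markers were lower too in each heifer (-0.29, -0.37 and -0.69), and their part in the complement and cytokine counts was not tested. Matrix proteases and their inhibitors divided, 8 higher and 7 lower of 40 (37.5% called, with 6 and 4, 2 and 2, and 4 and 4 without heifers 1, 2 and 3). The metalloproteinase inhibitor TIMP2 read 10.57, 10.90 and 10.47 in the ampulla and 12.91, 12.90 and 12.71 in the isthmus (difference 2.19 ± 0.11, adjusted p = 0.000295; 0.68 on its second probeset), while urokinase PLAU was lower, at -1.51 ± 0.16 (adjusted p = 0.00379). No list member of the respiratory chain (33 genes, median -0.12) was called, 1 of 31 interferon-stimulated genes was, and 2 of 24 antigen presentation genes.

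CCNB1, cyclin B1, read 7.15, 7.02 and 7.73 in the ampulla and 11.93, 12.06 and 12.09 in the isthmus (difference 4.72 ± 0.25, 26.4-fold, adjusted p = 0.000321), opposite to the other mitosis genes called. Of 25 mitosis genes 1 was higher and 5 were lower (24% called against 8.46% of all genes). Among the lower was the condensin subunit NCAPG (-1.82 ± 0.19, adjusted p = 0.00344), and 1, 1 and 2 were lower without heifers 1, 2 and 3. CCNB1 lies in the longest run of neighbouring measured genes called in the same direction, a group of 6 singled out after the values were seen. In assembly order the run was CCDC125 (0.61), CDK7 (2.20), MRPS36 (2.41), CENPH (1.81), CCNB1 (4.72) and SLC30A5 (1.11). The kinase CDK7 read 8.68, 8.84 and 8.96 in the ampulla and 10.84, 11.13 and 11.10 in the isthmus, and the mitochondrial ribosomal protein MRPS36 9.09, 9.24 and 9.27 against 11.30, 11.61 and 11.90. Neither overlapped. In the FP their differences were 0.36, 1.41, 2.10, 0.72, 3.64 and 0.47, all in the same direction. Of 17584 genes with a place in the assembly, 18 runs of 3 or more held 60 called genes, 13 runs higher in the isthmus and 5 lower. Among the others were SVOPL, ATP6V0A4 and TMEM213 (2.93, 2.15 and 1.10), and ENPP1, CCN2 and MOXD1 (1.75, 4.74 and 2.66). ATP6V0A4 was not called without heifer 2 (adjusted p = 0.0611), TMEM213 not without heifer 2 or heifer 3 (adjusted p up to 0.0659), and CCDC125 not without heifer 1 or heifer 2 (adjusted p up to 0.14).

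**Figure D4:**
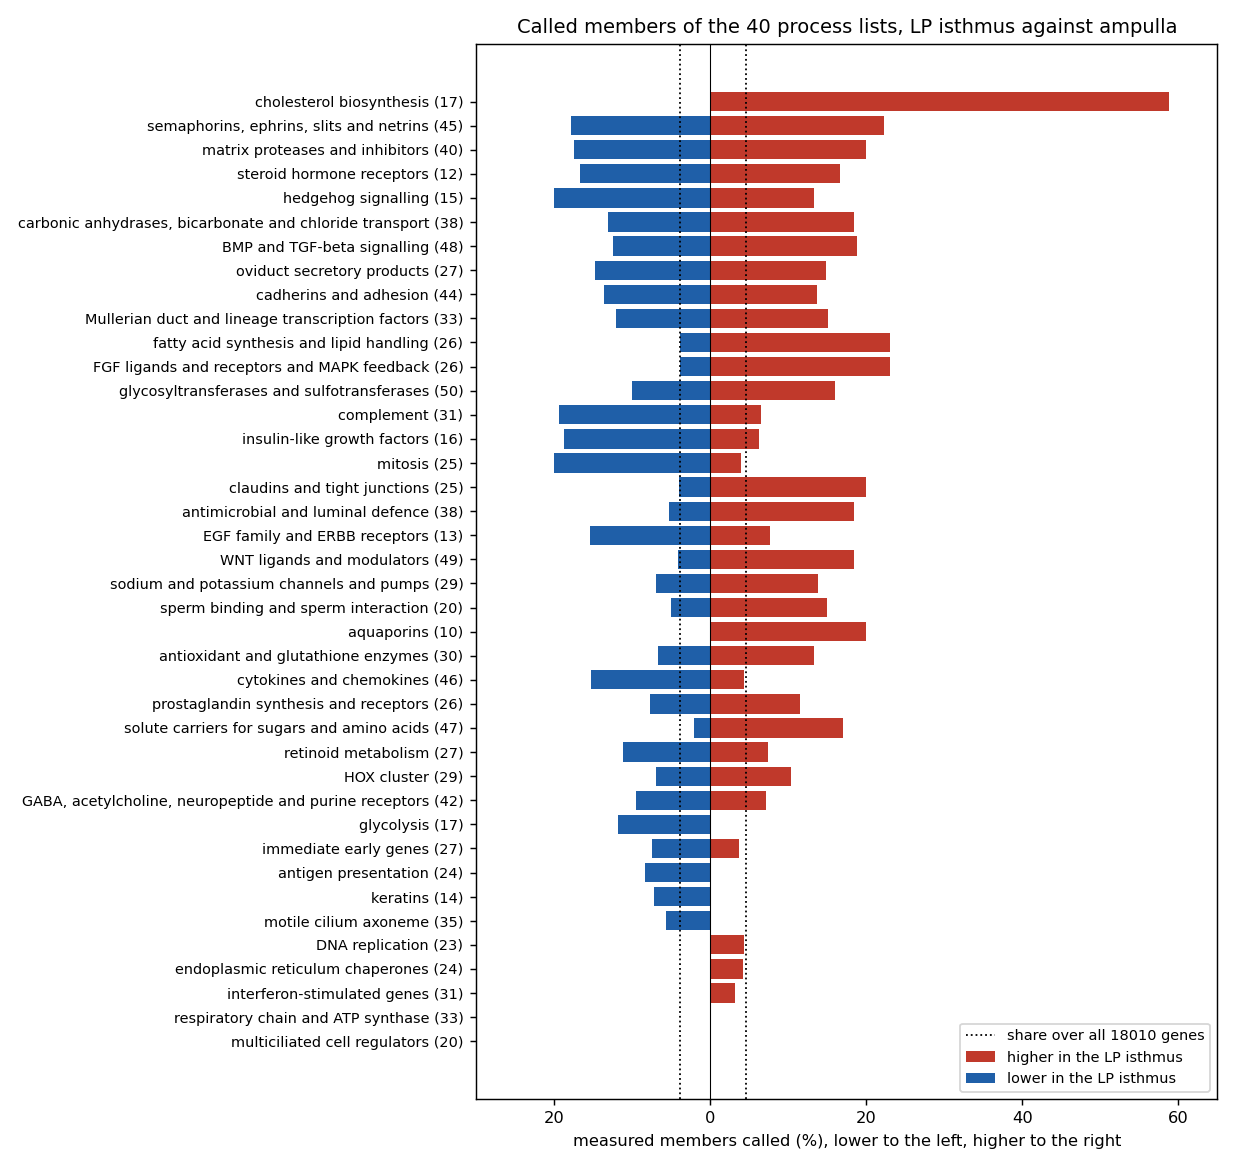
Share of measured members called in the LP (%), higher in the isthmus to the right in red and lower to the left in blue, for 40 process lists with the number of measured members in brackets. Dotted lines mark the shares over all 18010 genes (4.6% higher, 3.86% lower). Cholesterol biosynthesis reaches 58.8%, all higher in the isthmus, and 2 lists have no called member. The lists were chosen with earlier results of these data known.

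The FP arrays, from other heifers, gave segment differences from animals whose values do not enter the LP differences, although both share the estimate of spread. There 451 genes were called (2.5%), 290 higher in the isthmus (1.61%) and 161 lower (0.894%). Over probesets 566 were called, and 307, 99 and 256 without FP heifers 1, 2 and 3 and 374 without LP heifer 2. Of the 1015 probesets higher in the LP isthmus 93.7% had an FP difference of the same sign and 28.2% were called, against 1.33% of all probesets. Of the 810 lower in the LP isthmus 94.9% had the same sign and 17.2% were called, against 0.784%. None was called the other way. FP differences were smaller on the whole, with a median of 0.56 against 1.09 for the probesets higher in the LP isthmus and -0.47 against -0.97 for the lower, and these probesets were chosen for their LP size. Turned around, 80.3% of the FP calls higher in the isthmus and 66.2% of the lower were called in the LP. GRP differed by 6.54 in the FP, NETO1 by 6.13, LOC282340 by 5.10, CFTR by 4.57 and UPK1B by -4.21, each called in both phases.

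Whether the LP and FP differences were unlike, in either direction, was tested for each probeset. Of the probesets 19 passed (0.071%), as did 13 genes (0.0722%), while 2770 probesets had an unadjusted p under 0.05. In 18 of the 19 the LP difference was the larger in size. SERPINB12 differed by 5.44 in the LP and 1.68 in the FP (phase difference 3.76, adjusted p = 0.00286), and KSR2 by 3.18 and 0.23 (2.95, adjusted p = 0.00286). These 2 held without any 1 heifer, with an adjusted p up to 0.0469 each. KLF17 (3.63 and 0.54), IHH (3.44 and 1.65) and LOC522479 (5.96 and 2.75) passed as well, as did FST, lower at -1.5 in the LP and at 0.01 in the FP, but not without most single heifers (adjusted p up to 0.134, 0.0907, 0.21 and 0.198). The exception in direction was CLEC3A, a C-type lectin, at 6.57, 6.70 and 6.54 in the LP ampulla and 6.72, 6.64 and 7.16 in the LP isthmus (difference 0.24 ± 0.21), against an FP difference of 3.72. BSP3 differed by 4.02 in the LP and 0.86 in the FP, a phase difference of 3.16 that did not pass (adjusted p = 0.19).

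**Figure D5:**
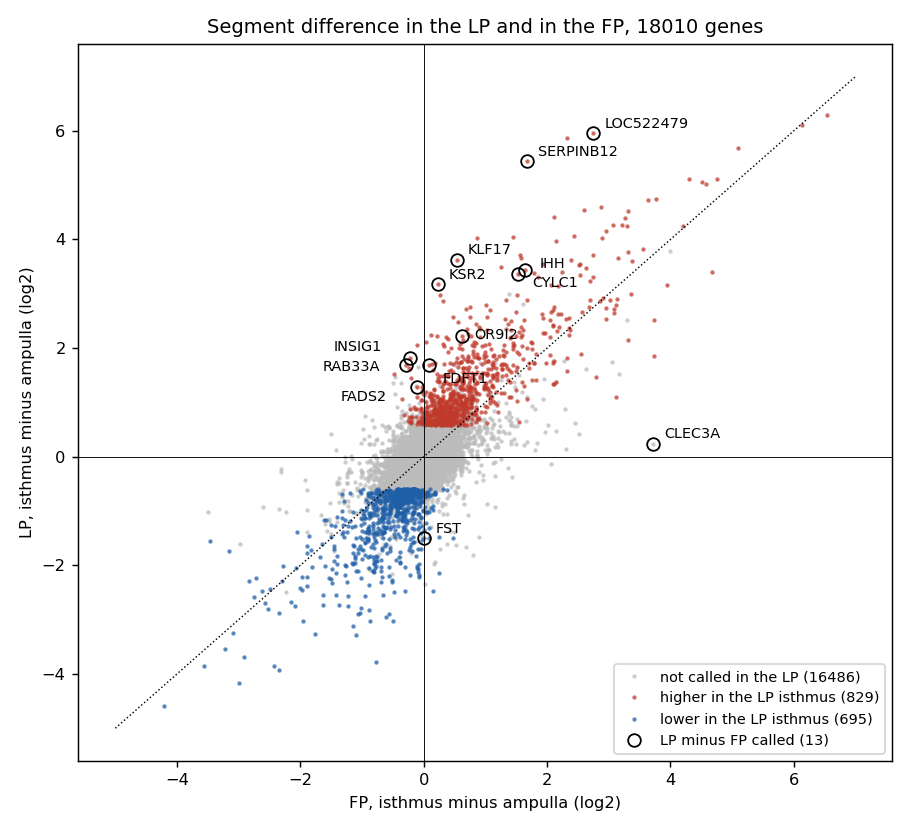
Isthmus minus ampulla (log2) in the LP (vertical) against the FP (horizontal) for 18010 genes, with genes called higher in the LP isthmus in red, lower in blue and the rest in grey. Circles mark the 13 genes whose LP and FP differences themselves differ, and the dotted line is equality. SERPINB12 lies at 5.44 in the LP and 1.68 in the FP, and CLEC3A at 0.24 and 3.72.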

How the data were processed

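RNA of the 12 epithelial samples (TRIzol, then RNeasy columns) was hybridised to Bovine Gene 1.0 ST arrays. The authors deposited 1 table of log2 values per probeset, which they had background-corrected and quantile-normalised by RMA. The submitters' processing notes name GCOS 1.2 and Partek 6.4, and the array's genome build is not given in the sources used here. Quantile normalisation gives all arrays nearly the same distribution, so a shift of most genes together would not show. The number of arrays limits the precision.

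Of 26773 probesets 18457 had 1 gene symbol, 688 several and 7628 none. They read 18010 genes, each taken from its probeset of highest mean signal, and 17584 matched RefSeq (ARS-UCD2.0), which was used for names and neighbours only. The tests used limma 3.58.1 in R 4.3.3, with a mean for each of the 6 heifers as a block and an isthmus minus ampulla term for each phase over all 12 arrays (4 residual degrees of freedom), and Benjamini-Hochberg adjustment over all probesets. Adjusted p-values in the text are from this fit. A phase difference, LP minus FP segment difference, needed an adjusted p under 0.05 and was held to no fold. LP and FP share no heifer or array but share the estimate of spread.

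The pairing comes from the animal numbers in the titles. Deviations from the group means correlated at 0.26, 0.22 and 0.37 within LP heifers (-0.22 to -0.05 between different LP heifers). Within FP heifers they correlated at -0.05, -0.17 and -0.10 (-0.15 to 0.24 between different FP heifers). Arrays paired by title were thus more alike than other arrays in the LP but not in the FP.

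Gene members and lists (40 processes, 13 cell types) were chosen with earlier results of these data known. Named genes were the 20 with the largest calls in each direction without overlap, up to 4 called genes per list or else 2 of smallest p, 5 phase differences per direction, all steroid receptors, and 5 per direction called in both phases. Other family members, neighbours and list members were chosen after their values were seen. Alternatives were no block, a random block, LP arrays only, a low-signal filter, cyclic loess, median centring, a variance trend, array weights, other minimum folds, the methods' F-test, and each heifer left out. The fit was tested on simulated data.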

Additional observations from a re-analysis of the deposited data

Results flagged for a closer look

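The segment difference differed between the phases, by the test of LP minus FP segment difference in limma, for 13 genes. SERPINB12 (3.76, adjusted p = 0.00286) and KSR2 (2.95, adjusted p = 0.00286) kept this without any 1 heifer. Without the heifer block the adjusted p of SERPINB12 was 0.0583 and that of KSR2 0.0154. LOC522479 (3.21), KLF17 (3.09), INSIG1 (2.04), IHH (1.79), FDFT1 (1.61) and FADS2 (1.40) also had the larger isthmus excess in the LP. RAB33A (1.97), CYLC1 (1.83) and OR9I2 (1.60) passed the same test. FST stood at -1.51, with the isthmus below the ampulla in the LP alone by the means (-1.5 and 0.01). CLEC3A stood at -3.48, with the isthmus excess in the FP. Each of these 11 lost its call without at least 1 heifer, and without the block KLF17 (adjusted p = 0.0816), OR9I2 (0.0669) and FST (0.133) lost theirs too.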

How the results depend on the processing

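The 1825 LP calls became 716 to 1735 with a heifer left out, lowest without LP heifer 2 (962 without LP heifer 3, and 1358 without LP heifer 1). Those higher in the isthmus became 478 to 981 and those lower 238 to 754. At a fold of at least 2 the counts were 946, 565 and 381, and with no minimum fold 1311 were lower. Without the replicate block 1871 were called, 91.6% of the paired calls kept, and no setting called a probeset the other way. The 19 phase differences became 41 without the replicate block, 59 with heifer as a random block, 34 with the low-signal filter, 45 with a variance trend and 3 to 4 with a heifer left out. The 566 FP calls became 99 (without FP heifer 2) to 423 (without LP heifer 1). Of the named genes that were not called, the difference changed sign for BSP5 (-0.22 to 0.33), LRRN4 (-0.57 to 0.80), MVK (0 to 0.12), OVGP1 (-1.22 to 0.32) and VDR (-0.25 to 0.02) with 1 heifer left out. TMEM213, JCHAIN and CD3G lost their calls without the block. The cause of these changes was not tested, beyond the fewer arrays that a left-out heifer leaves.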
